A study of Rattus norvegicus with 12 samples.

Results

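The 9 genes described here are the usual markers of astrocytes and of their reactive state, and their messenger RNA was followed in the dorsal striatum of rats with a dopamine lesion. They are Gfap, Vim and Nes (intermediate filaments), Slc1a2, Slc1a3 and Glul (glutamate uptake and its conversion to glutamine), Gja1 (gap junctions), Aldh1l1 (folate metabolism) and S100b (calcium binding). Members were the probes carrying one of these gene names, ignoring case and the suffix that marks a predicted gene. By name, 14 of the 41012 probes on the array belonged to 8 of the 9 genes. No probe was named Aldh1l1, but 1 probe listed under the older name Fthfd carries an accession that RefSeq assigns to Aldh1l1, and it was added on that basis. Of the 9 genes, 8 passed the filter on dim probes, among 20398 genes tested, and S100b did not.

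Astrocytes take up the glutamate and potassium that neurons release, supply neurons with glutamine and lactate, and are joined to each other by gap junctions. After injury or degeneration they can become reactive: their processes thicken and the filament proteins GFAP and vimentin accumulate, sometimes with nestin, which is otherwise typical of immature neural cells. In models of Parkinson's disease, astrocyte reactions have been described both at the dopamine cell bodies and in the striatum, where their terminals are lost. In the striatum many astrocytes hold little GFAP, so that the glutamate transporters, glutamine synthetase and ALDH1L1 label them more evenly.

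All 12 rats were males whose left substantia nigra had been injected with 9 µg of the dopamine neuron toxin 6-OHDA. They formed 4 groups of 3 rats. The 6-OHDA group had the lesion alone, so every comparison below is between lesioned animals and none is with intact striatum. Rats of the HFS group had their subthalamic nucleus on the lesion side stimulated without pause over 5 days with a current of 60 µA in 80 µs pulses delivered at 130 Hz. Those of the DOPA group were given L-DOPA (25 mg/kg) and benserazide (12.5 mg/kg) in repeated daily injections over 19 days. In the DOPA/HFS group the stimulation was combined with the L-DOPA treatment. The stimulated rats carried an electrode in the subthalamic nucleus, not in the striatum. Among the array groups, implantation is described for the HFS and DOPA/HFS rats only, so implantation and stimulation cannot be told apart. Rats with an incomplete lesion or a misplaced electrode had been left out of the groups. Tissue punched from several sections of 1 rat was pooled and hybridised to 1 single-colour array, so each array is 1 rat. Since RNA from whole tissue was measured, fewer astrocytes and less RNA per astrocyte cannot be told apart.

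The arrays came on 3 slides with 1 array of each group per slide, at a place on the slide that was always the same for a group, so place and treatment cannot be told apart. Between 50.5% and 63.2% of the 43379 spots were well above background. On 11 arrays the scanner software marked 2 to 25 spots as outliers, and on the third DOPA/HFS array it marked 4175, which were left out. Values below are log2 signals after quantile normalization between arrays, given in the order of the replicate numbers.

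No member was called in any comparison. A call required a Benjamini-Hochberg adjusted p under 0.1 in a limma fit and a fold over 1.2 or under 0.8, and none of the 8 tested members passed in 6 comparisons. None of the 48 values had an unadjusted limma p under 0.05 either, and the smallest, 0.0798, was that of Slc1a2 in the DOPA main effect. Over all tested genes the call rule was almost as silent. It was met by 0% in HFS against 6-OHDA, in DOPA/HFS against 6-OHDA, in the HFS main effect and in the interaction, and by 0.0049% (1 gene) in DOPA against 6-OHDA and again in the DOPA main effect. An unadjusted p under 0.05 was found for 2.34% of all tested genes in HFS against 6-OHDA, 2.58% in DOPA against 6-OHDA and 2.75% in DOPA/HFS against 6-OHDA. The corresponding shares were 4.36% in the HFS main effect, 2.74% in the DOPA main effect and 1.98% in the interaction. For 8 members, shares of this size come to less than 1 gene in each comparison.

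The differences that were measured were small, and their intervals bound how large a change may have been missed. The 48 differences lay between -0.40 and 0.45 on the log2 scale. Against 6-OHDA, the 95% intervals of the 8 members ran from a fold of 0.668 to 1.96 in the HFS group, from 0.545 to 1.77 in the DOPA group and from 0.728 to 1.88 in the DOPA/HFS group, taking the lowest and the highest bound of any member. In the HFS group 5 members lay above 6-OHDA and 3 below, with a median difference of 0.14 beside 0.01 over all tested genes. In the DOPA group 4 lay above and 4 below (median 0.02, beside -0.01), and in the DOPA/HFS group 6 above and 2 below (median 0.14, beside -0.01). The 3 comparisons share the 6-OHDA arrays.

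**Figure D1:**
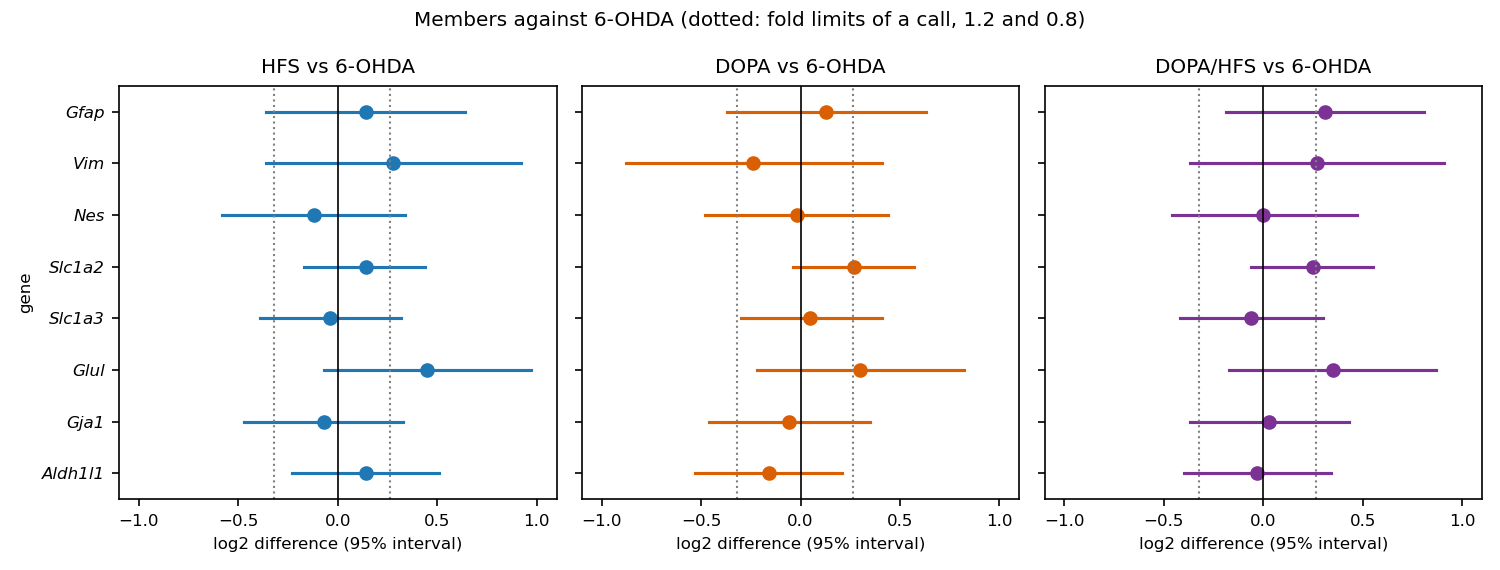
Difference of each of the 8 tested members from the 6-OHDA group on the log2 scale (x axis), with points for the limma estimate and lines for its 95% interval, in 1 panel per treatment; dotted lines mark the fold limits of a call. Every line crosses 0, and the estimates run from -0.24 for Vim in the DOPA group to 0.45 for Glul in the HFS group.

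Gfap encodes the glial fibrillary acidic protein, the filament protein by which reactive astrocytes are usually recognised. Its log2 signal was 8.60, 8.15 and 8.80 on the 6-OHDA arrays, 8.56, 9.00 and 8.41 on the HFS arrays, 8.71, 8.31 and 8.92 on the DOPA arrays and 8.96, 8.88 and 8.64 on the DOPA/HFS arrays. The second 6-OHDA rat was the lowest of all and the second HFS rat the highest, so the extremes of the gene came from 2 rats of the same slide, and every treated group overlapped with 6-OHDA. The group means stood at 8.52, 8.66, 8.65 and 8.83 in that order, closer together than the rats within a group. The difference from 6-OHDA was 0.14 in the HFS group (SE 0.23, adjusted p = 0.998), 0.13 in the DOPA group (SE 0.23, adjusted p = 1) and 0.31 in the DOPA/HFS group (SE 0.23, adjusted p = 1). The last corresponds to a fold of 1.24, with a 95% interval from 0.876 to 1.76. This DOPA/HFS difference was 0.13 without the second 6-OHDA rat and 0.45 without the third. With outlier spots kept it was 0.47, and with the values that the authors had normalized 0.11.

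Gfap is printed 10 times on each array, which gives the noise between spots of 1 hybridisation. The SD between its spots within an array was 0.06 to 0.17, with a median of 0.10, whereas the SD between the 3 rats of a group was 0.34, 0.31, 0.31 and 0.17. The arrays of the 6-OHDA, HFS and DOPA groups thus differed by more than the spots of 1 array. In the DOPA/HFS group the SD between rats was 0.17, and so was that between the spots of its first array. Differences between rats cannot be told apart from those of labelling, hybridisation and scanning. On the third DOPA/HFS array 4 of the 10 Gfap spots were outliers and the other 6 were used, with a mean of 8.64. Gja1, printed 10 times as well, had an even smaller spot SD of 0.03 to 0.13.

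**Figure D2:**
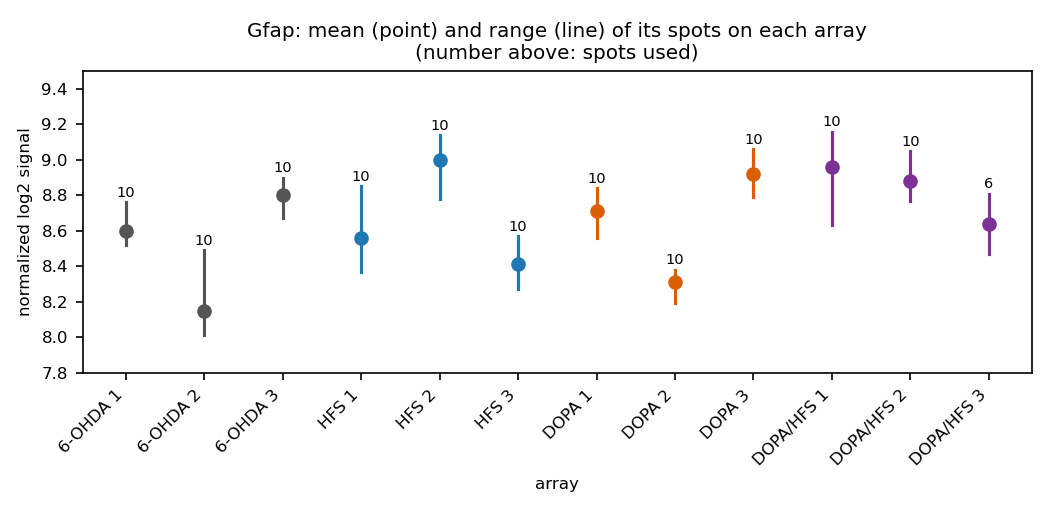
Gfap log2 signal on the 12 arrays (x axis), with the mean of its spots as a point, their range as a line and the number of spots used above it. The spots of an array span less than the arrays of most groups do: the 3 arrays of the 6-OHDA group range from 8.15 to 8.80 and those of the HFS group from 8.41 to 9.00.

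Vim encodes vimentin, the filament protein of immature and reactive astrocytes, which endothelial, ependymal and other cells hold as well. It varied most among the members, by 1.52 log2 units between the lowest and the highest rat. Its signal was 11.29, 11.67 and 12.06 on the 6-OHDA arrays, 11.77, 11.94 and 12.16 on the HFS arrays, 11.78, 10.87 and 11.67 on the DOPA arrays and 12.39, 11.60 and 11.84 on the DOPA/HFS arrays. The lowest value was that of the second DOPA rat and the highest that of the first DOPA/HFS rat, and the groups overlapped throughout. The difference from 6-OHDA was 0.28 in the HFS group (SE 0.29) and 0.27 in the DOPA/HFS group (SE 0.29), and -0.24 in the DOPA group (SE 0.29). Taken over rats with and without L-DOPA, the stimulated rats lay 0.39 above the others (SE 0.21, adjusted p = 0.911 in limma). Single rats weighed on these Vim values. The HFS difference was 0.09 without the first 6-OHDA rat, and the DOPA/HFS difference 0.04 without the first DOPA/HFS rat. Without the second DOPA rat, the DOPA difference was 0.05 and the HFS main effect 0.25.

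Nes encodes nestin and is read by 2 probes that varied alike, with a Pearson r of 0.83 over the 12 arrays. The brighter probe gave 9.43, 9.92 and 9.68 on the 6-OHDA arrays, 9.48, 9.73 and 9.47 on the HFS arrays, 9.46, 9.84 and 9.67 on the DOPA arrays and 9.53, 9.39 and 10.12 on the DOPA/HFS arrays. The highest of these was the array with the many outlier spots, which was also the highest on the other probe, at 7.74. The differences from 6-OHDA were -0.12 for HFS, -0.02 for DOPA and 0.00 for DOPA/HFS, each with an SE of 0.21.

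The upstream sequences of the filament genes are shown because these are the genes whose transcription is usually read as astrocyte reactivity. Each is the 250 bases before the annotated start in RefSeq (rat build GRCr8), written along the strand of the gene, with capitals for matches, on either strand, to the TATA box (the letters TATAAA), to the CCAAT box, to the GC box (read as GGGCGG), to a STAT palindrome (read as TTCNNNGAA) or to the AP-1 site (read as TGANTCA). Gfap lies on chr10:88361662-88361911 (minus strand), Vim on chr17:81577011-81577260 (plus strand) and Nes on chr2:175736338-175736587 (plus strand).
Gfap: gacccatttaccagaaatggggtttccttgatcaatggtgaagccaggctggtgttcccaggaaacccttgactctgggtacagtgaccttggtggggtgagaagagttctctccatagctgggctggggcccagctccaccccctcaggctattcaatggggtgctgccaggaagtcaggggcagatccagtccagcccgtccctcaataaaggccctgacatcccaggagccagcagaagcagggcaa
Vim: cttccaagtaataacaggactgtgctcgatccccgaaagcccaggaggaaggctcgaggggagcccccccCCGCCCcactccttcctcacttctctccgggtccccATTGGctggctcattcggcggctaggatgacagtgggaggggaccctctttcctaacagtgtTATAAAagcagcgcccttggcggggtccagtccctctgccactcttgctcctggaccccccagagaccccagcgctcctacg
Nes: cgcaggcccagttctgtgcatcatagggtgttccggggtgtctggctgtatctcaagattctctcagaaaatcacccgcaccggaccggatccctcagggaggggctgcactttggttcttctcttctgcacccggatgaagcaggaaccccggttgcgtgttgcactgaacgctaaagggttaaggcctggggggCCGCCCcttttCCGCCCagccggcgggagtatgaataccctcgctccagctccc
The Vim window holds TATAAA from 82 to 77 bases before the start, with CCAAT on the other strand from 144 to 140 and a GC box on the other strand from 180 to 175. The Nes window holds a pair of GC boxes on the other strand, from 54 to 49 and from 43 to 38 bases before the start. The Gfap window holds none of the 5 motifs. Among 33469 annotated starts, 12.9% have the TATA box in the same window, 34% the CCAAT box, 30.5% the GC box, 7.67% the STAT palindrome and 6.34% the AP-1 site, and a match is a description only.

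Among the genes of glutamate handling, Slc1a2 came closest to a separation of the groups. It encodes GLT-1, the transporter that clears most of the glutamate released in the forebrain. Its brightest probe gave 11.22, 11.27 and 11.28 on the 6-OHDA arrays, 11.42, 11.29 and 11.48 on the HFS arrays, 11.50, 11.53 and 11.53 on the DOPA arrays and 11.72, 11.53 and 11.26 on the DOPA/HFS arrays. All 3 DOPA rats and all 3 HFS rats lay above all 3 lesioned controls, the lowest HFS rat only just, while the third DOPA/HFS rat lay among the controls. The DOPA difference was 0.27 (SE 0.14, adjusted p = 1 in limma), a fold of 1.2 with a 95% interval from 0.974 to 1.49. The HFS difference was 0.14 (SE 0.14, adjusted p = 0.998) and the DOPA/HFS difference 0.25 (SE 0.14, adjusted p = 1). Groups of 3 that do not overlap give an exact two-sided permutation p of 0.1, the smallest that 3 rats against 3 allow. Over all 6 rats with L-DOPA against the 6 without, the difference was 0.19 (SE 0.10, adjusted p = 1 in limma), with an exact two-sided permutation p of 0.0216, not adjusted over the members, where the smallest possible is 0.00216. Without the first DOPA/HFS rat this difference was 0.14. With the values that the authors had normalized it was 0.10, and with the mean of both Slc1a2 probes 0.04. The summed signals of some markers of other cells differed as well. The summed linear signal of endothelial and mural markers (5 of 8) was 7730 to 8230 in the 6-OHDA group and 8930 to 10500 in the DOPA group, and that of markers of proliferating and immature cells (3 of 6) was 2990 to 3660 and 2030 to 2880. When each gene was centred on its own mean and the genes were averaged, both lists overlapped. The endothelial list then ran from -0.55 to 0.26 in the 6-OHDA group and from 0.08 to 0.24 in the DOPA group. The list of immature cells ran from -0.33 to 0.33 and from -0.80 to -0.22. The part of these cells in the Slc1a2 values was not tested.

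Groups that do not overlap were not rare on these arrays. Among 18350 genes measured on every array, 3.13% lay higher in every DOPA rat than in every 6-OHDA rat and 3.05% lay lower. The shares were 2.91% higher and 2.23% lower for HFS, and 1.74% higher and 2.45% lower for DOPA/HFS. Of the 8 members, Slc1a2 was the only one that did not overlap in the DOPA group, Slc1a2 and Glul did not overlap in the HFS group, both lying higher, and none in the DOPA/HFS group.

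A further Slc1a2 probe, designed on a splice variant and printed 10 times, was dim and did not repeat this separation. It gave 5.92, 5.45 and 6.33 on the 6-OHDA arrays, 5.88, 6.25 and 6.19 on the HFS arrays, 6.33, 5.93 and 6.09 on the DOPA arrays and 6.05, 5.57 and 5.38 on the DOPA/HFS arrays. Every treated group overlapped with 6-OHDA there, and the values of both probes over the 12 arrays had a Pearson r of 0.22. Both probes lay above 6-OHDA on average in the DOPA group, by 0.27 and 0.22, and in the HFS group, by 0.14 and 0.21. In the DOPA/HFS group they went opposite ways, by 0.25 and -0.23.

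Glul encodes glutamine synthetase, which turns the glutamate taken up by astrocytes into glutamine and which oligodendrocytes also hold. Its brightest probe gave 12.49, 12.22 and 12.69 on the 6-OHDA arrays, 12.71, 12.85 and 13.19 on the HFS arrays, 12.67, 12.81 and 12.84 on the DOPA arrays and 13.16, 13.05 and 12.26 on the DOPA/HFS arrays. The HFS rats lay above all 6-OHDA rats, the lowest DOPA rat lay just inside the range of the controls, and the third DOPA/HFS rat lay close to the lowest control. The HFS difference of 0.45 (SE 0.24, adjusted p = 0.998) was the largest of all members, a fold of 1.36 with a 95% interval from 0.951 to 1.96. The DOPA difference was 0.30 and the DOPA/HFS difference 0.35, with the same SE. The interaction, which asks whether stimulation changed the gene as much with L-DOPA as without, was -0.40 (SE 0.33, adjusted p = 1), and -0.12 without the third DOPA/HFS rat. The DOPA/HFS difference ranged from 0.19 without the first DOPA/HFS rat to 0.64 without the third one, and that of Slc1a2 from 0.14 to 0.37 in the same settings.

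The 3 Glul probes did not give 1 answer. The probe A_44_P381069, designed on the same transcript record as the brightest one, gave 12.01, 11.77 and 11.92 on the 6-OHDA arrays and 12.05, 12.34 and 12.33 on the HFS arrays, so that the groups again did not overlap, with a difference of 0.34. It also separated the DOPA arrays, at 12.15, 12.08 and 12.29. The probe A_44_P1030714, designed on the RefSeq transcript, gave 12.39, 12.08 and 12.71 in the 6-OHDA group and 12.23, 12.44 and 12.51 in the HFS group, a difference of 0.00. Over the 12 arrays the pair from the same record had an r of 0.87, and the third probe had an r of 0.54 and 0.49 with them. Whether the probes read different ends or forms of the transcript was not tested.

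**Figure D3:**
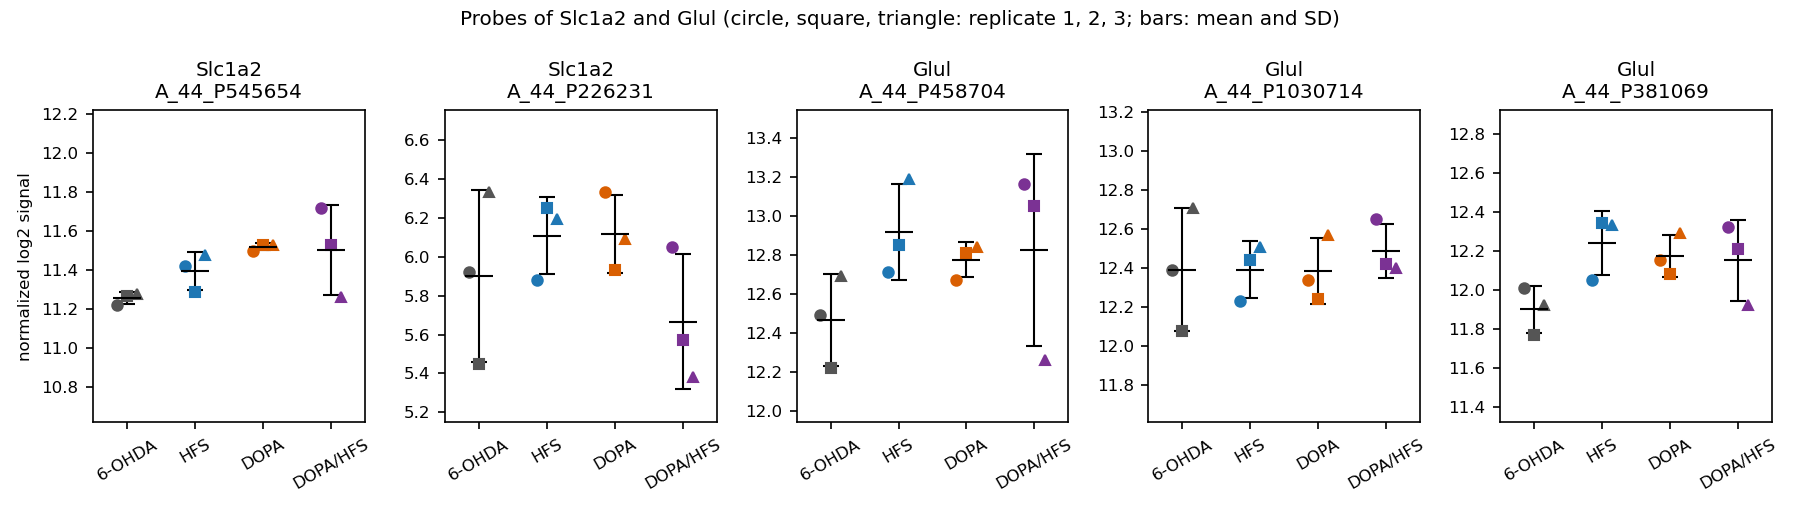
Log2 signal (y axis, 1 scale length in all panels) of the 2 Slc1a2 probes and the 3 Glul probes in the 4 groups, with 1 symbol per replicate number and bars for mean and SD. The tight DOPA and 6-OHDA points of the first Slc1a2 probe (SD 0.02 and 0.03) separate the groups, which the second probe does not, and the middle one of the 3 Glul panels shows no difference between HFS and 6-OHDA.

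Markers of the choroid plexus, the secretory tissue of the ventricles, were brighter on the HFS arrays. The summed linear signal of 4 of 8 choroid plexus markers, those measured on every array, was 170 to 192 in the 6-OHDA group, 4080 to 87100 in the HFS group, 92.3 to 16000 in the DOPA group and 118 to 768 in the DOPA/HFS group. Over the 3 HFS rats in order it was 87100, 4080 and 43500, beside Glul signals of 12.71, 12.85 and 13.19. Its part in the Glul and Slc1a2 values was not tested. The sums of the other lists overlapped between HFS and 6-OHDA except for leptomeninges (5 of 6 markers), which ran from 5280 to 6730 in the 6-OHDA group and from 7190 to 12700 in the HFS group. As a mean of centred log2 signals the leptomeninges list overlapped, at -0.24 to 0.14 and 0.06 to 0.31. For oligodendrocytes (5 of 6 markers) the sums were 180000 to 206000 and 194000 to 213000.

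Slc1a3 encodes GLAST, the transporter of radial glia and of astrocytes. Its brightest probe gave 15.36, 14.93 and 15.29 on the 6-OHDA arrays, 15.08, 15.09 and 15.29 on the HFS arrays, 15.42, 15.05 and 15.28 on the DOPA arrays and 15.28, 15.03 and 15.09 on the DOPA/HFS arrays. The second slide held the lowest value of the 6-OHDA, DOPA and DOPA/HFS groups. Slides took 58.1% of its sum of squares and groups 8.44%, beside medians of 21% and 21.1% over all genes measured on every array. The differences from 6-OHDA were -0.04, 0.05 and -0.06, each with an SE of 0.16. The other Slc1a3 probe had an r of 0.66 with it and overlapped between groups as well.

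Gja1 encodes connexin 43, the main gap junction protein of astrocytes. It gave 13.83, 14.00 and 13.51 on the 6-OHDA arrays, 13.96, 13.54 and 13.63 on the HFS arrays, 13.80, 13.78 and 13.61 on the DOPA arrays and 13.62, 14.08 and 13.75 on the DOPA/HFS arrays. The groups covered the same range, with differences from 6-OHDA of -0.07, -0.06 and 0.03 (SE 0.18 each). The other Gja1 probe stood at background on all arrays.

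Aldh1l1 encodes the folate enzyme 10-formyltetrahydrofolate dehydrogenase, an even marker of astrocytes. Its probe gave 10.70, 10.90 and 10.80 on the 6-OHDA arrays, 11.19, 10.76 and 10.86 on the HFS arrays, 10.94, 10.48 and 10.51 on the DOPA arrays and 10.71, 10.90 and 10.71 on the DOPA/HFS arrays. A pair of DOPA rats was the lowest of the 12 and the first HFS rat the highest. The differences were 0.14, -0.16 and -0.03, with an SE of 0.17 each.

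S100b encodes the calcium binding protein S100B. Its probe, printed 10 times per array, was at background on each of the 12 arrays, with only 3 of its 120 spots passing, and its log2 signal of 2.65 to 3.22 lay below the dimmest detected spots, which stood at 4.03 to 5.71. Since S100b was not well above background in any group, no fold is given. Whether the probe or the transcript sets its dim signal was not tested.

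**Figure D4:**
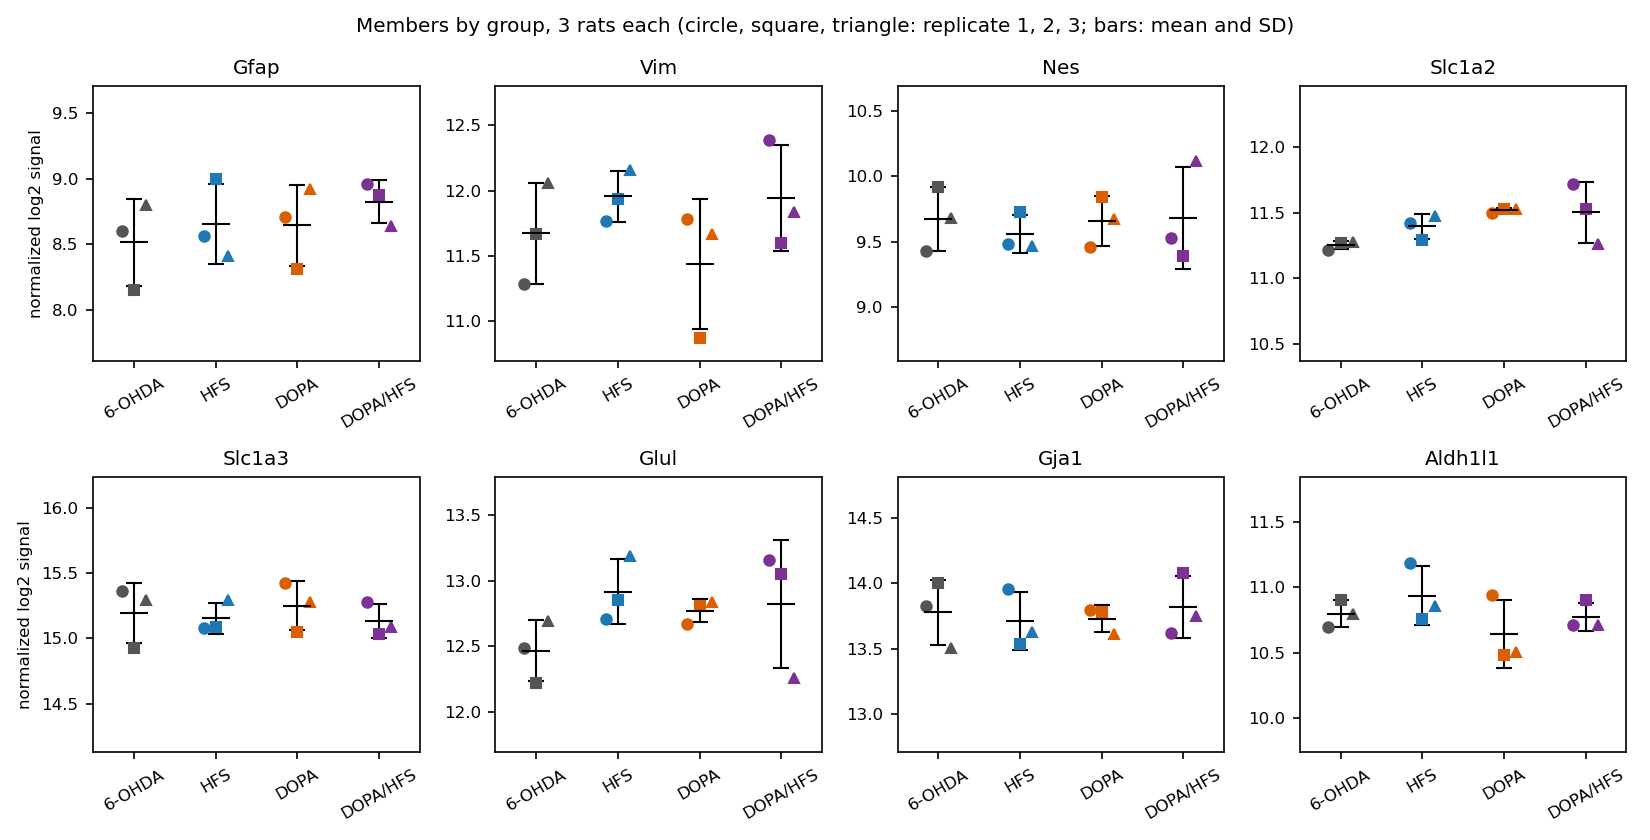
Log2 signal (y axis, 1 scale length in all panels) of the 8 tested members in the 4 groups of 3 rats, with 1 symbol per replicate number and bars for mean and SD. The treated groups overlap with 6-OHDA in all panels but Slc1a2 (DOPA and HFS) and Glul (HFS).

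Because each slide held 1 rat of each group, the difference could also be read slide by slide. Slc1a2 lay above 6-OHDA in the DOPA rat of every slide, by 0.29, 0.26 and 0.25, and in the HFS rat of every slide, by 0.20, 0.02 and 0.20. Glul did so too, by 0.18, 0.59 and 0.15 for DOPA and by 0.22, 0.63 and 0.50 for HFS. Gfap lay slightly higher in the DOPA rat of each slide, by 0.11, 0.16 and 0.12, but in the HFS rats by -0.04, 0.86 and -0.39. For Vim the HFS rats lay higher on each slide, by 0.47, 0.27 and 0.09. In all other combinations of a member and a treatment, the direction differed between slides. The share of all genes that keep 1 direction over 3 slides was not counted, so these runs are a description only. On the third slide the DOPA/HFS rat lay 0.02 below the control in Slc1a2 and 0.43 below it in Glul, against the other slides.

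The members did not move as 1 block from rat to rat. Of the 28 pairs, 12 had a positive and 16 a negative Pearson r over the 12 arrays, with a median of -0.09. When arrays were scaled by their 75th percentile instead, 12 pairs were again positive, but single pairs changed sign. Slc1a3 and Gja1 went from -0.51 to 0.20, Nes and Slc1a3 from -0.51 to 0.11, and Slc1a3 and Glul from 0.28 to -0.56. The closest pair was Slc1a2 and Glul, the transporter and the enzyme that follow each other in the glutamate cycle (r = 0.74, permutation p = 0.0062, adjusted over 28 pairs p = 0.17; Spearman's rho = 0.71, permutation p = 0.013, adjusted p = 0.37). It stayed at 0.65 without the 2 arrays farthest from the Slc1a2 median, at 0.76 after slide means were subtracted and at 0.80 after group means were subtracted. Nes and Glul had an r of -0.62, which fell to -0.10 without the 2 farthest arrays and thus rests on them. Gfap and Vim had an r of 0.44 (permutation p = 0.15, adjusted p = 0.50), and of 0.15 without the 2 farthest arrays. No pair passed an adjusted p of 0.05.

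**Figure D5:**
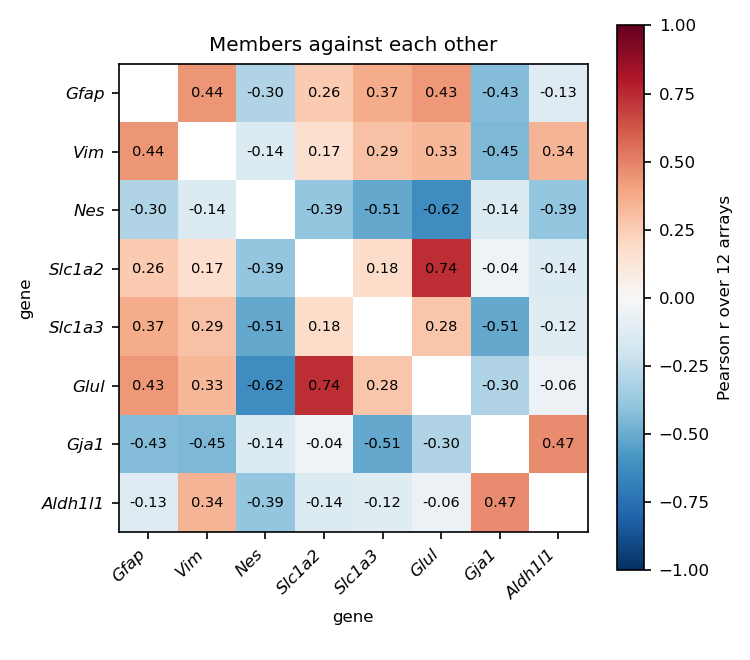
Pearson r over the 12 arrays between each pair of the 8 tested members, with red for positive and blue for negative values. The Slc1a2 and Glul pair at 0.74 is the highest, and 16 of the 28 pairs are negative.

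Averaged over the 8 members after each was centred on its own mean, the 12 rats differed little. The mean stood at -0.13, -0.11 and 0.02 in the 6-OHDA rats, at 0.03, 0.03 and 0.07 in the HFS rats, at 0.04, -0.16 and 0.01 in the DOPA rats and at 0.18, 0.06 and -0.03 in the DOPA/HFS rats. The HFS rats were all above the 6-OHDA rats by this mean, but only just. The lowest HFS rats stood at 0.03 and the highest 6-OHDA rat at 0.02. How often such a mean separates groups of 3 was not tested. Glul, with the largest HFS difference of the members, entered by its brightest probe (0.45), where another of its probes gave 0.00. The 6 astrocyte markers measured on every array, all of them members, were centred and averaged in the same way. They did not overlap between 6-OHDA (-0.18 to -0.03) and HFS (0 to 0.06). In the DOPA group (-0.10 to 0.08) and the DOPA/HFS group (-0.14 to 0.15) they overlapped with 6-OHDA. Their summed linear signal overlapped between all groups, at 57000 to 66900 in the 6-OHDA group and 59000 to 67200 in the HFS group. It was 59800 to 69800 in the DOPA group and 58000 to 67000 in the DOPA/HFS group.

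The genes whose pattern over the 12 rats was most like that of Gfap, among 18342 others, were Silv (r = 0.89), Slc41a3 (0.88), Pigs (0.87), Siahbp1 (0.85) and the transcript listed as XM_233518 (0.85). For the mean of the members they were Parva (0.91), Cep57l1 (0.90), the unnamed probe A_44_P110196 (0.89), RGD1559144 (0.88) and Mcm6 (0.88). None of them is a gene of the astrocyte lists. They are the highest of 18342 values over only 12 arrays, and how high such top values run by chance was not tested. Some were dim: Parva ran from 4.13 to 6.45, A_44_P110196 from 4.12 to 5.39 and XM_233518 from 4.34 to 6.20, near the dimmest detected spots (4.03 to 5.71).

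Other genes typical of astrocytes were not called either. Of 32 listed, 31 were on the array and 30 were tested, and none passed in any comparison. In the HFS group 21 lay above 6-OHDA and 9 below, with a median difference of 0.08, in the DOPA group 15 and 15, with a median of 0.00, and in the DOPA/HFS group 19 and 11, with a median of 0.07. An unadjusted p under 0.05 was found for Plpp3, a lipid phosphatase, and Htra1, a secreted protease, in the HFS group, for Sox9, a transcription factor of the glial lineage, in the DOPA group, and for Cyp4f4, a cytochrome P450, in the DOPA/HFS group. The same held for Aldoc, an enzyme of glycolysis, in the HFS main effect (0.32, SE 0.14, adjusted p = 0.911), and for Plpp3 (-1.29, SE 0.53) and Htra1 (-0.54, SE 0.24) in the interaction, both with an adjusted p of 1. Htra1 gave 12.62, 12.42 and 12.84 on the 6-OHDA arrays and 12.99, 13.11 and 13.15 on the HFS arrays, which do not overlap (difference 0.46, SE 0.17, adjusted p = 0.998). Sox9 lay 0.49 lower in the DOPA group (log2 difference -0.49, SE 0.21, adjusted p = 1), with 11.27, 12.00 and 11.51 on the 6-OHDA arrays and 11.42, 11.04 and 10.84 on the DOPA arrays, which overlap. Pla2g7, a secreted phospholipase, did not overlap with 6-OHDA and lay lower in the DOPA group (-0.85, SE 0.44, adjusted p = 1) and in the HFS group (-0.50, SE 0.44, adjusted p = 0.998). Agt, which encodes angiotensinogen, lay higher without overlap in the HFS group (0.37), and Cyp4f4 lay lower without overlap in the DOPA/HFS group (-0.59). The largest positive difference in the DOPA and DOPA/HFS groups was that of Slc6a11, a GABA transporter (0.76 and 0.81, SE 0.45), which overlapped. It gave 5.24, 3.16 and 5.15 on the 6-OHDA arrays, 5.30, 5.38 and 5.14 for DOPA and 5.13, 5.08 and 5.76 for DOPA/HFS. Both differences thus rest largely on the second 6-OHDA array, whose value lay below the dimmest detected spots (4.03 to 5.71). Kcnj10, the potassium channel Kir4.1, was on the array but too dim to be tested.

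The genes linked with the reactive state were measured less completely. Of 32 listed, 26 were on the array and 18 were tested, and again none was called. Serpina3n and Lcn2, both strong markers of reactive astrocytes in other injury models, were on the array but did not pass the filter on dim probes. In the HFS group 14 lay above 6-OHDA and 4 below (median 0.12), and in the DOPA and DOPA/HFS groups 12 above and 6 below (medians 0.06 and 0.20). Lgals3, the galectin 3 gene, which activated microglia express as well, had the smallest p of the list. It gave 8.19, 9.18 and 7.86 on the 6-OHDA arrays and 9.95, 9.65 and 10.27 on the DOPA arrays (difference 1.55, SE 0.48, adjusted p = 1). In the DOPA/HFS group it gave 8.27 and 10.06, the value of the third rat having been dropped as an outlier. C3, the complement gene, lay 0.80 higher in stimulated than in unstimulated rats (SE 0.30, adjusted p = 0.911), with its highest value of 11.43 in the first DOPA/HFS rat. Timp1, a protease inhibitor of reactive glia, lay 0.93 above 6-OHDA in the DOPA/HFS group (SE 0.43, adjusted p = 1). The largest negative differences of the list were those of Cxcl10, a chemokine, with -1.25 in the DOPA group and -1.31 in the DOPA/HFS group (SE 1.04, adjusted p = 1). It gave 6.00, 5.51 and 4.35 on the 6-OHDA arrays, 4.74, 4.91 and 2.47 on the DOPA arrays and 2.98, 5.00 and 3.95 on the DOPA/HFS arrays, which overlap. The values of 2.47, 2.98 and 3.95 lay below the dimmest detected spots (4.03 to 5.71), so the size of these differences is uncertain. C3 in the HFS group (0.70) and Ptgs2, the cyclooxygenase 2 gene, in the DOPA group (0.35) lay higher without overlap. The Lgals3 values of the DOPA group also lay above all 6-OHDA values. Lgals3 lacks a value on the third DOPA/HFS array, so it is not among the genes measured on every array.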

How the data were processed

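Expression was measured in the dorsal striatum of 12 rats, on 1 single-colour array each. The deposited scanner files hold spot intensity values, to which the authors' scanner software (Agilent Feature Extraction 9.1, per the submitters' processing notes) had applied background and spatial corrections but no normalization between arrays. The deposited series table holds log2 values that the authors had quantile normalized, and it served as an alternative. Outlier spots were left out. The log2 intensities of the 43379 spots that are not controls were quantile normalized and averaged per probe. A probe was kept if at least a share of 0.5 of its spots was well above background on at least a share of 0.4 of the arrays, and the brightest probe stood for a gene, as named in the files or, for 10735 of 41012 probes, by RefSeq accession (GRCr8). The number of arrays limits the precision.

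The 4 groups were fitted with limma 3.58.1 in R 4.3.3. Main effects average HFS over L-DOPA and the reverse. The limma p-values rest on the spread between the arrays of a group. In that spread, differences between rats cannot be told apart from those of labelling, hybridisation and scanning. The fits were tested on simulated data. Correlations had 100000 permutations, two-sided. The members, the lists, the naming rule (all members; of the lists, called genes, and a choice of those with the 3 largest changes in each direction of a comparison) and the tests were chosen with earlier results of these data known. Genes of both lists with an unadjusted p under 0.05 or with groups that did not overlap are named too, after their values were seen. The replicate number is the slide. Deviations from group means of same-numbered arrays correlated over 18350 genes at -0.29 to 0.48, over 0.1 in 10 of 18 pairs. Their median r was 0.11, beside -0.07 for 36 pairs of arrays that differed in both number and group.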

Additional observations from a re-analysis of the deposited data

How the results depend on the processing

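No member was called under any alternative: 75th percentile scaling, normexp background correction, the deposited table, no filter, the mean of all probes, outlier spots kept, the replicate block, fits of the compared arrays, other thresholds, or leaving out an array. The smallest adjusted p of a named value over the 20 alternatives was 0.52, and 508 of 537 values kept their direction or rounded to 0. Gja1 in DOPA/HFS became -0.04 with 75th percentile scaling, -0.05 in the deposited table and -0.04 with outlier spots kept. Nes became 0.01 in DOPA with normexp, the deposited table and the mean of all probes, and -0.11 and -0.14 in DOPA/HFS in the deposited table and with outlier spots kept. Slc1a3 in DOPA/HFS became 0.05 with the mean of all probes. In that setting Slc1a2 fell from 0.25 to 0.01 in DOPA/HFS and from 0.19 to 0.04 in the DOPA main effect. Leaving out arrays gave, against 6-OHDA, for Gfap -0.04 to 0.28 in HFS and -0.06 to 0.30 in DOPA, for Vim -0.43 to 0.05 in DOPA, for Nes -0.14 to 0.10 in DOPA and -0.22 to 0.15 in DOPA/HFS, for Slc1a3 -0.17 to 0.05, -0.08 to 0.15 and -0.20 to 0.02, for Gja1 -0.21 to 0.04, -0.19 to 0.05 and -0.10 to 0.14 in HFS, DOPA and DOPA/HFS, and for Aldh1l1 -0.09 to 0.02 in DOPA/HFS. Without the third DOPA/HFS array, the one with many outlier spots, Glul in DOPA/HFS was 0.64 and Slc1a2 0.37, with unadjusted limma p of 0.00765 and 0.0214, and without the first DOPA/HFS array they were 0.19 and 0.14, with unadjusted limma p of 0.473 and 0.34. Keeping outlier spots or using the deposited table raised the r of Slc1a2 and Glul to 0.84 and 0.86, with 1 of 28 pairs then under an adjusted p of 0.05. Both settings moved the median of all genes in DOPA/HFS, to -0.14 and -0.12. In the same settings without that array the r was 0.71 and 0.74.

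Over all genes, the count called in DOPA against 6-OHDA was 1, became 0 without a filter, with the replicate block and at an adjusted p under 0.05, 2 in a fit of the compared arrays, and 0 to 13 without single arrays (13 without the first DOPA/HFS array). For HFS it became 3 without a filter and 0 to 2 without single arrays. In the DOPA main effect it became 2 with normexp and in the deposited table and 1 to 28 without single arrays, in DOPA/HFS 0 to 3 and in the HFS main effect 0 to 1. The replicate block changed no other count. The cause was not tested. Dim probes (S100b) were limited by their signal over background.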
